A study of Mus musculus with 6 samples.

Results

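Metallothioneins, the zinc sensor Mtf1 and zinc transporters were followed through cultures of activated mouse T cells. The 8 genes were Mt1, Mt2, Mtf1, the exporter genes Slc30a1 and Slc30a5 and the importer genes Slc39a1, Slc39a6 and Slc39a10, out of 49671 genes in the deposited count tables. They were chosen by their place in zinc biology and with the measured count differences between the treatments and between the library sets of these data already known. Their differences are therefore given as a description, without a test, and all 8 passed the filter on low counts.

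RNA was sequenced in bulk from cultures of mouse splenocytes of OT-I genotype, whose transgenic T cell receptor recognises the ovalbumin peptide SIINFEKL. The labels call the cells naive primary CD8 T cells, and all groups received SIINFEKL for 48 h on antigen-presenting cells. The control group received an isotype antibody (libraries replicate 1 and replicate 4), the second group BiTS, a bispecific T cell silencer that brings the inhibitory receptor LAG-3 to the T cell receptor (replicates 1 and 2), and the third BiTS(mut) (replicates 1 and 2), a mutated form whose change the labels do not describe. Each group had 2 libraries, 6 in all, and the labels give neither the age nor the number of the mice, nor whether replicates came from separate cultures, so any p-value here measures the spread between these libraries and nothing wider. Sample titles are numbered 1 to 6, with 1 library of each group in titles 1 to 3 (the first set) and 1 of each in titles 4 to 6 (the second set), and the labels do not say what a title number marks.

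Metallothioneins are small cysteine-rich proteins that bind zinc and copper and hold the pool of free zinc low. MTF1 is a zinc-finger transcription factor that senses free zinc, binds metal response elements in DNA and induces metallothionein genes and Slc30a1. Transporters of the SLC30 family (ZnT proteins) move zinc out of the cytosol, to the outside or into organelles, and those of the SLC39 family (ZIP proteins) move it into the cytosol. In T cells, zinc entry through ZIP proteins is known to accompany signalling from the T cell receptor.

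Mt1 and Mt2 lie next to each other on chromosome 8 (mm10), both on the plus strand. Mt2 runs from 94172664 to 94173568 and Mt1 from 94179082 to 94180327, with 5513 bases between them. Their promoters are shown, with that of Slc30a1, because MTF1 is known to act on these 3 genes through metal response elements. The windows hold 250 bases before and 50 after the RefSeq start site (GRCm38.p6, which shares its coordinates with mm10) and are printed 5′ to 3′ on the strand of the gene. Capitals mark the core of the metal response element, searched as TGCACNC and TGCGCNC on both strands.

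Mt2, chr8:94172368-94172667, plus strand: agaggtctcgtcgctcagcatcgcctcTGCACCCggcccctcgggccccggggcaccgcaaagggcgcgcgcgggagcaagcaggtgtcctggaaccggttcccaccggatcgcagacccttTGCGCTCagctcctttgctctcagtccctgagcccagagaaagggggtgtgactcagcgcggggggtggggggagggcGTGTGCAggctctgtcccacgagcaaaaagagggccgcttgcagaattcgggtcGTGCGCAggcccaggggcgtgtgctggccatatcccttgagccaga
Mt1, chr8:94178839-94179138, plus strand: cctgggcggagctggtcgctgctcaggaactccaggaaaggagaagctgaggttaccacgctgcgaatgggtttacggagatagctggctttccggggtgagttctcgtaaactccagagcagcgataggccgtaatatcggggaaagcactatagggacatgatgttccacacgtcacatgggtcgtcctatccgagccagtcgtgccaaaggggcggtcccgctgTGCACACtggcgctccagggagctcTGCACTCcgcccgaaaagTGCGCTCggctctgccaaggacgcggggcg
Slc30a1, chr1:191906531-191906830, plus strand: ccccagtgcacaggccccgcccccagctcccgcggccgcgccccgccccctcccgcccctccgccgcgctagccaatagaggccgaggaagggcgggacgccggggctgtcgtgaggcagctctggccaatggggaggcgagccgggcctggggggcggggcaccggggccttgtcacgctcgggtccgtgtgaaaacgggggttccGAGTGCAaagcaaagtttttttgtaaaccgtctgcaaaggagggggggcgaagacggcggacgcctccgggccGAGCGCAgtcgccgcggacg

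The Mt2 window held 4 cores, starting at -223, -128, -50 and 4 from the start site, and the Mt1 window held 3, starting at -23, 2 and 20. Slc30a1 held 2 cores, at -43 and 30, and Slc30a5 held 1, at -48 (chr13:100833378-100833677, minus strand). The windows of Mtf1 and Slc39a1 and both windows of Slc39a10 held 0. Slc39a6 had no window in the table, so 7 of the 8 genes were matched. Of 32851 RefSeq promoter windows of this length, 25.7% held at least 1 core, 7.11% at least 2, 1.97% at least 3 and 0.517% at least 4. The windows stand at RefSeq start sites, which are not always those of the deposited gene models. Counted from the deposited start, with upstream negative, the RefSeq start of Mtf1 lay at 445 bases and those of Slc39a10 at -32924 and 39234. GENCODE release M21 also lists protein-coding transcripts that start downstream of the RefSeq start, by 122 and 152 bases for Mt1, 242 for Mt2 and 475 for Slc30a1, and for these transcripts the windows end before the start. A match of these letters is a description and says nothing of binding in these cells.

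**Figure D1:**
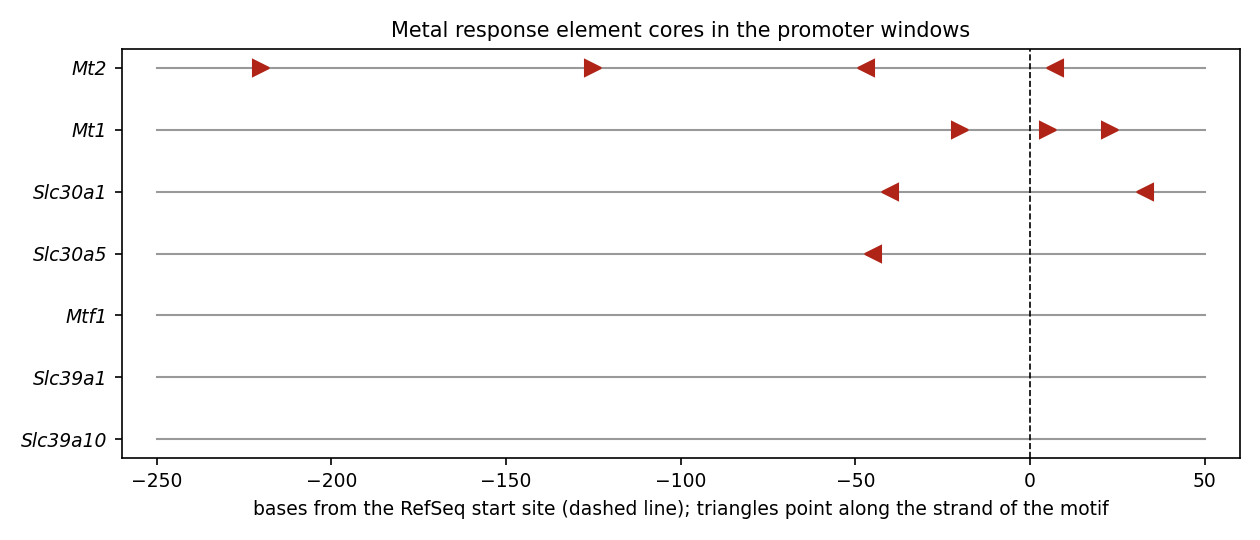
Position of each metal response element core (red triangle, pointing along its strand) in the promoter windows of 7 genes, in bases from the RefSeq start site. Mt2 has 4 cores and Mt1 has 3, Slc30a1 has 2, Slc30a5 has 1, and Mtf1, Slc39a1 and Slc39a10 have none.

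Total gene counts were 10813123 to 15239077 per library, so a count of 3, the limit that a count of 0 allows, was 0.197 to 0.277 CPM (counts scaled to a common library total). Genes were called at an adjusted p under 0.05 (edgeR's quasi-likelihood test, Benjamini-Hochberg over 13996 tested genes). Without a term for the set, edgeR called 0 genes in any treatment comparison, as did DESeq2 and limma-voom. The genes with an unadjusted edgeR p under 0.05 numbered 176 (BiTS against isotype), 76 (BiTS against BiTS(mut)) and 41 (BiTS(mut) against isotype). With the set as a block, 476, 136 and 7 genes were called, and between the sets 7382. The blocked fit had 2 residual degrees of freedom for a gene's own libraries and 45.95 borrowed from the spread over all genes, so a small p there does not measure how well 1 gene's libraries repeat. Summed over 9 T cell markers, the level was 1750 to 2223 CPM, Cd4 and Foxp3 together were at or under 0.89 CPM, and 18 dendritic cell markers summed to 2523 to 3158 CPM in the first set and 1494 to 1661 CPM in the second. Transcripts of genes that mark dendritic cells were thus part of every library, and in such bulk samples fewer cells of a type and less RNA per cell cannot be told apart.

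Per length of exon, the metallothioneins were the most abundant of the 8 genes. Mt1 had a mean of 324 TPM (counts scaled by exon length and library total; SD 52.4, n = 6 libraries) and Mt2 of 195 TPM (SD 53.4). Slc39a1, which encodes the plasma membrane importer ZIP1, followed at 70.3 TPM (SD 19.3) and Slc30a5 at 37.8 TPM (SD 1.47). Slc39a6 (20.8 TPM, SD 2.99) and Slc39a10 (20.5 TPM, SD 3.67) did not differ beyond their spread. Mtf1 was at 10.6 TPM (SD 1.40) and Slc30a1 at 6.95 TPM (SD 3.35). The TPM values rest on the exon lengths in the deposited tables, 1246 bases for Mt1 and 588 for Mt2, which join all annotated exons. Of the 588 bases of Mt2, 432 are shared with an antisense gene, Gm45774. The use of strand in counting is not given, so the level of Mt2 is less certain.

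The comparisons of the 3 treatments ask how BiTS and its mutated form change activated OT-I cultures relative to isotype. Both metallothioneins were lowest with isotype, intermediate with BiTS(mut) and highest with BiTS, in each of the 2 sets. Mt2 was at 58.5 ± 7.75 CPM with BiTS and 32.3 ± 1.42 CPM with isotype (SD, n = 2 each), and Mt1 at 180 ± 0.60 and 133 ± 6.79 CPM. Mtf1, the exporters and the importers differed by 0.19 or less in absolute log2 fold change between BiTS and isotype. With the block, this limit rose to 0.40 without BiTS replicate 1 (Slc30a1), and Slc39a6 reached -0.32 without isotype replicate 1.

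Mt1 was at 137.9 CPM (isotype), 172.3 CPM (BiTS(mut)) and 179.1 CPM (BiTS) in the first set, and at 128.3, 154.3 and 180.0 CPM in the second. No library of a higher group overlapped one of a lower group, and the BiTS libraries lay within 1 CPM of each other. The log2 fold change of BiTS against isotype was 0.46 with a standard error of 0.14 without the block and 0.46 ± 0.09 with it, a 1.38-fold difference. BiTS(mut) differed from isotype by 0.31 ± 0.09 and BiTS from BiTS(mut) by 0.15 ± 0.08 with the block. The 3 comparisons share libraries and are not independent of each other.

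Mt2 was at 33.3 CPM (isotype), 46.7 CPM (BiTS(mut)) and 53.0 CPM (BiTS) in the first set, and at 31.3, 42.6 and 64.0 CPM in the second. Its groups did not overlap either, and BiTS replicate 2 was the highest of the 6 libraries. The log2 fold change of BiTS against isotype was 0.89 with a standard error of 0.17 without the block and 0.88 ± 0.11 with it, a 1.84-fold difference. Within the sets the log2 ratio was 0.72 (first set) and 1.03 (second set), on CPM scaled by TMM, the trimmed mean of M-values that the fits also used; printed CPM are scaled to library totals. BiTS(mut) differed from isotype by 0.48 ± 0.11 and BiTS from BiTS(mut) by 0.40 ± 0.10, and the latter had a log2 ratio of 0.20 in set 1 and 0.60 in set 2.

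**Figure D2:**
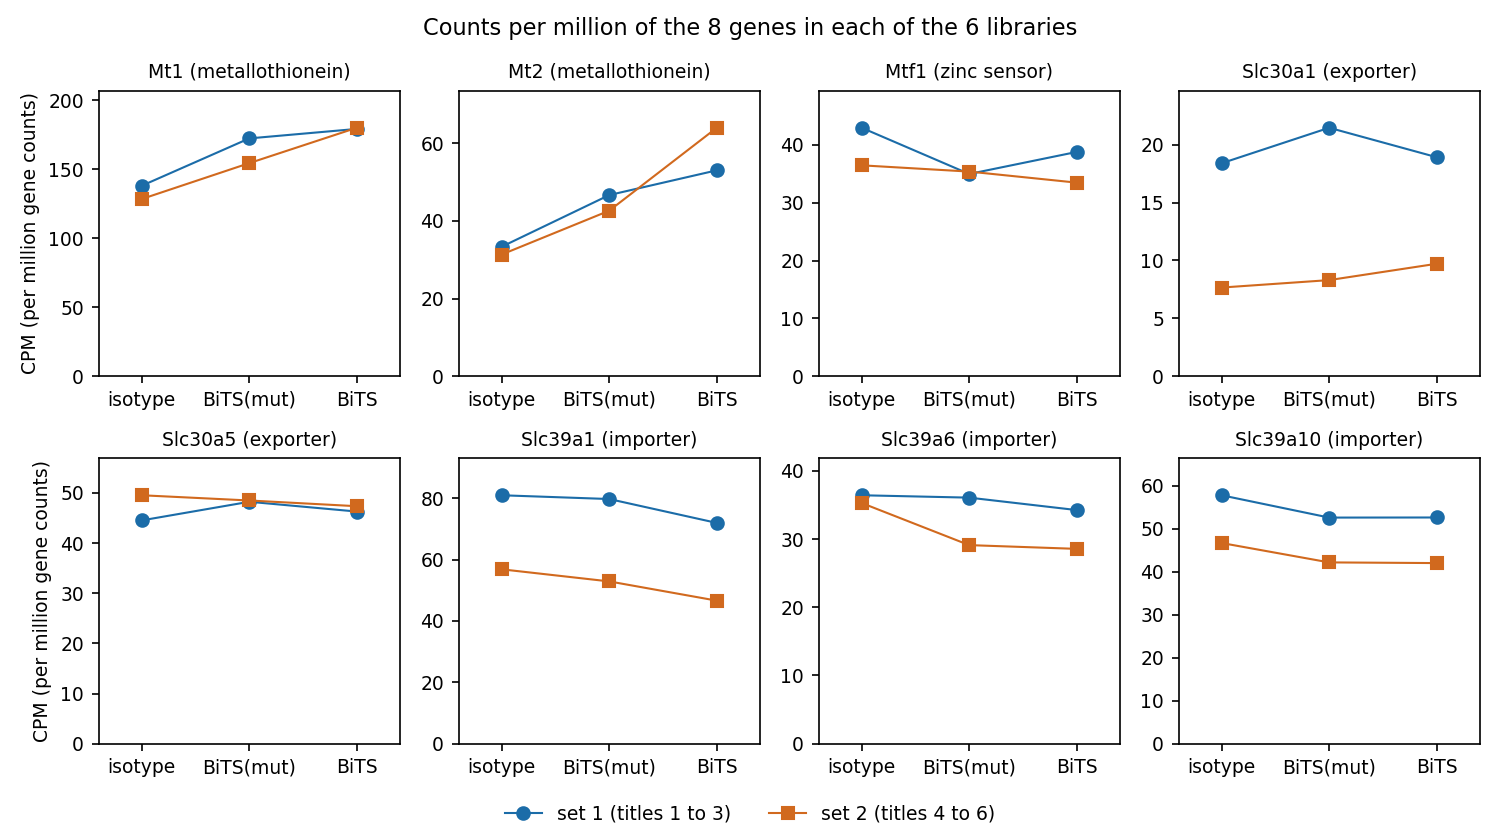
CPM (vertical axes, from 0) of the 8 genes under isotype, BiTS(mut) and BiTS; each point is 1 library, circles for the first set and squares for the second, with a line joining the 3 libraries of a set. Mt1 and Mt2 are lowest with isotype and highest with BiTS in both sets, while the lines of Slc30a1, Slc39a1 and Slc39a10 are separated by set.

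With the block, Mt1 and Mt2 were among the genes called higher in BiTS than in isotype, where 3.4% of all tested genes were called, 1.81% higher and 1.59% lower. Mt2 was among those called in BiTS against BiTS(mut) (0.972% of all genes, 0.272% higher and 0.7% lower), and none of the 8 genes was in BiTS(mut) against isotype (0.05%). On TMM-scaled values, an order of isotype below BiTS(mut) below BiTS in both sets was found in 6.52% of all tested genes. Both BiTS libraries lay above both isotype libraries in 11.3% of all tested genes and above both BiTS(mut) libraries in 8.71%, and both BiTS(mut) libraries lay above both isotype libraries in 6.82%. Since the genes were chosen with these differences known, nothing is read from these shares. By size of the blocked log2 fold change of BiTS against isotype, Mt2 stood at place 144 and Mt1 at place 750 of 13996.

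The call of Mt1 in BiTS against isotype was lost without BiTS replicate 2 (0.40 with the block), and that of Mt2 in BiTS against BiTS(mut) without BiTS replicate 2 (0.22), BiTS(mut) replicate 1 (0.54) or BiTS(mut) replicate 2 (0.27). Scaled to the ERCC spike-in RNAs, with the median of all genes at 0.06, Mt1 was at 0.53 and Mt2 at 0.96 in BiTS against isotype. Neither was called, but 0 of all tested genes were called higher and 0 lower under that scaling. Relative to the median of all genes, Mt1 was at 0.47 and Mt2 at 0.90 there, beside 0.47 and 0.88 with TMM.

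The balance between the metallothioneins also differed between libraries. Mt2 held 19.5% (95% Wilson interval 17.8% to 21.3%) and 19.6% (17.8% to 21.5%) of the Mt1 and Mt2 counts in the isotype libraries of the first and second set. The share was 21.3% (19.96% to 22.7%) and 21.6% (20.05% to 23.3%) with BiTS(mut), and 22.8% (21.4% to 24.3%) and 26.2% (24.6% to 27.9%) with BiTS. The intervals, which cover counting error only, overlapped between isotype and BiTS(mut), and those of the isotype and BiTS libraries of the same set did not overlap, while that of the second isotype library reached that of the first BiTS library. BiTS replicate 2 stood above all other libraries.

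Mt2 shares 432 of its 588 exon bases with Gm45774, an antisense RNA gene on the minus strand (chromosome 8, 94170748 to 94173412). Whether the counting used strand is not given in the sources used here, and reads of the pair cannot be told apart. Gm45774 had 38 counts (isotype), 96 (BiTS(mut)) and 100 (BiTS) in the first set, and 28, 50 and 59 in the second, against 348 to 715 counts of Mt2. With the block, Gm45774 was the 1 gene called of 12 tested within 250 kb of the metallothioneins, where 3.4% of all tested genes were called. It was at 1.18 ± 0.26 (adjusted p = 0.00417 with the block by edgeR's quasi-likelihood test), higher in both sets. Within each set its libraries stood in the same order as those of Mt2. Its counts may hold reads of Mt2, a gene chosen with its difference known. The call of Gm45774 can therefore not be taken as separate from that of Mt2. Mt1 overlaps no annotated gene, and the longest run of bases that Mt1 and Mt2 transcripts share was 20.

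**Figure D3:**
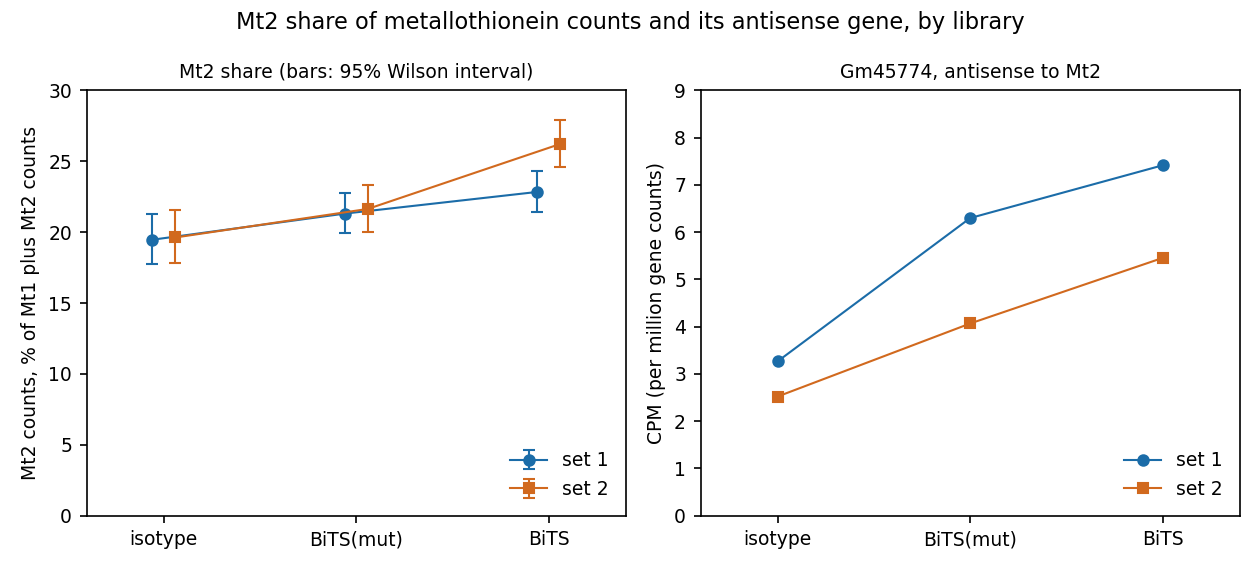
Left, Mt2 counts as a percentage of Mt1 plus Mt2 counts in each library, with 95% Wilson intervals; right, CPM of Gm45774, antisense to Mt2, in the same libraries, by treatment and set. The share runs from 19.5% and 19.6% with isotype to 22.8% and 26.2% with BiTS, and Gm45774 is lowest with isotype in both sets.

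The other tested neighbours were not called. Nearest to the threshold were 9330175E14Rik (-0.40 ± 0.13, adjusted p = 0.0884) and Bbs2 (0.56 ± 0.20, adjusted p = 0.127 by edgeR's quasi-likelihood test with the block), with opposite signs. Slc12a3 (-0.47 ± 0.35), Rpl10-ps5 (-0.34 ± 0.55) and Gm15890 (0.53 ± 0.77) had low counts and wide errors, and Nudt21, Ogfod1, Nup93 and Herpud1 lay between -0.10 and 0.08. The median over the 12 tested neighbours was -0.07. Mt3, the third metallothionein of this cluster and a gene best known from brain, was at 0.89 to 3.98 CPM, with a log2 fold change of -0.22 ± 0.36 in BiTS against isotype. Mt4 had 0 counts in all 6 libraries.

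Mtf1, on chromosome 4 from 124802104 to 124849800, was at 43.0 CPM (isotype), 35.0 CPM (BiTS(mut)) and 38.8 CPM (BiTS) in the first set, and at 36.5, 35.4 and 33.5 CPM in the second. The isotype library of the first set was the highest, BiTS and isotype overlapped, and both BiTS(mut) libraries lay below both isotype libraries, as in 6.89% of all tested genes. The blocked log2 fold changes were -0.11 ± 0.11 for BiTS against isotype and -0.16 ± 0.11 for BiTS(mut) against isotype. Mtf1 shares 721 of its 8907 exon bases with the antisense gene 1110065P20Rik.

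Slc30a1 encodes ZnT1, the zinc exporter of the plasma membrane, and lies on chromosome 1 from 191906767 to 191913247. It was at 18.4 CPM (isotype), 21.5 CPM (BiTS(mut)) and 18.9 CPM (BiTS) in the first set, and at 7.65, 8.30 and 9.71 CPM in the second. The treatments overlapped, and each library of the second set lay below each of the first. The blocked log2 fold change of BiTS against isotype was 0.19 ± 0.16, and without the block its standard error was 0.60. Slc30a1 shares 468 of its 5244 exon bases with the antisense gene 1700034H15Rik.

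Slc30a5 encodes ZnT5, which loads zinc into the secretory pathway, and lies on chromosome 13 from 100802649 to 100833427. Its 6 libraries were at 44.5, 48.2 and 46.3 CPM (isotype, BiTS(mut), BiTS; first set) and 49.5, 48.5 and 47.3 CPM (second set). It had the smallest spread of the 8 genes relative to its mean TPM, and BiTS against isotype was 0.02 ± 0.10 with the block.

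Slc39a1, on chromosome 3 from 90248172 to 90253612, was at 81.0 CPM (isotype), 79.7 CPM (BiTS(mut)) and 71.9 CPM (BiTS) in the first set, and at 56.8, 52.9 and 46.6 CPM in the second. BiTS was lowest in each set, yet the sets were further apart than the treatments, and BiTS against isotype was -0.19 ± 0.10 with the block. Slc39a6 and Slc39a10 encode ZIP6 and ZIP10, related importers that can pair with each other. Slc39a6 was at 36.4, 36.1 and 34.3 CPM in the first set and 35.3, 29.1 and 28.6 CPM in the second (isotype, BiTS(mut), BiTS). Both BiTS libraries lay below both isotype libraries, as in 9.5% of all tested genes, with a blocked log2 fold change of -0.17 ± 0.12. Slc39a10, on chromosome 1 from 46807544 to 46892852, was at 57.8, 52.6 and 52.6 CPM in the first set and 46.6, 42.1 and 42.0 CPM in the second. Isotype was the highest library of each set, and BiTS against isotype was -0.11 ± 0.10. Between BiTS and BiTS(mut), the 5 transporters differed by 0.15 or less in absolute blocked log2 fold change.

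**Figure D4:**
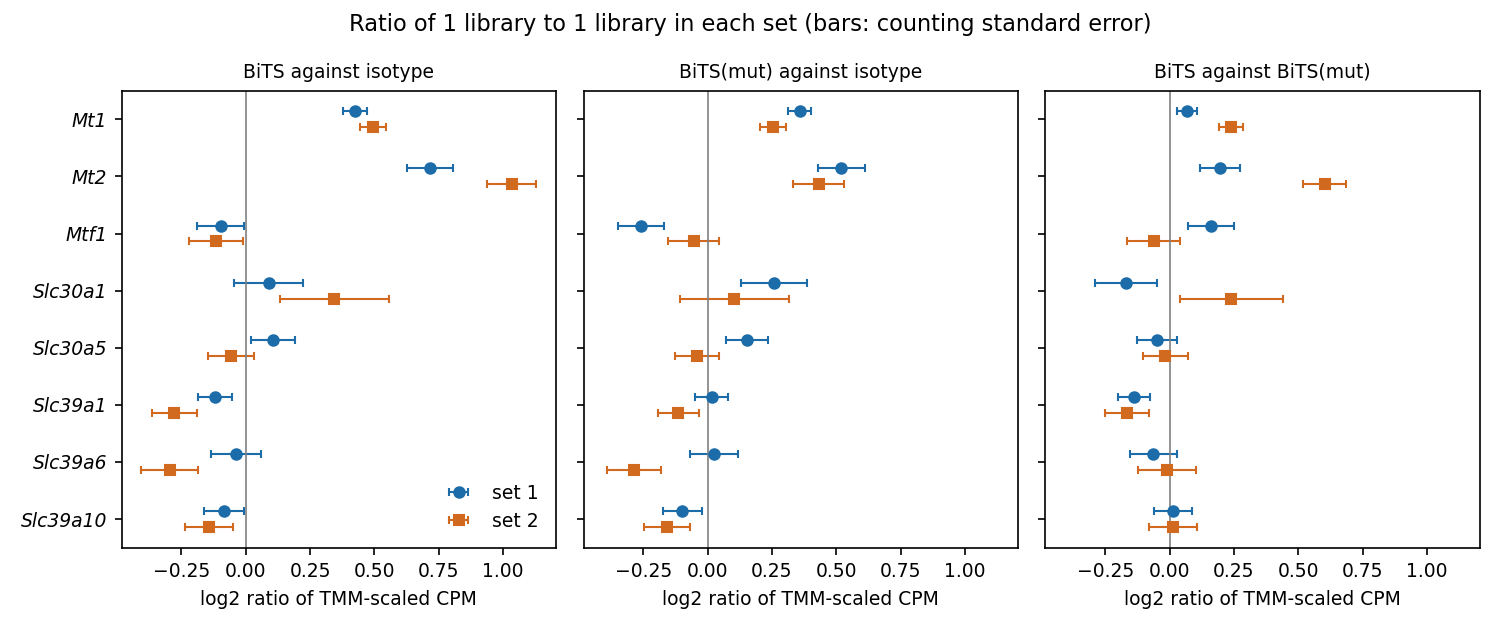
Log2 ratio of TMM-scaled CPM between 2 libraries of the same set (horizontal axes) for each of the 8 genes and the 3 treatment comparisons; circles are the first set, squares the second, and bars are the standard error from counting alone. Mt1 and Mt2 lie to the right of 0 in all 3 panels and both sets, and the other 6 genes lie between -0.30 and 0.34.

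Between the sets, the members that stood furthest apart were the transporter genes Slc30a1, Slc39a1 and Slc39a10. In the second set Slc30a1 was at 8.55 ± 1.05 CPM and in the first at 19.6 ± 1.64 CPM (SD, n = 3 each), a log2 fold change of -1.15 ± 0.13. Slc39a1 was at 52.1 ± 5.15 and 77.5 ± 4.89 CPM (-0.53 ± 0.08) and Slc39a10 at 43.6 ± 2.65 and 54.3 ± 2.99 CPM (-0.27 ± 0.08). For these 3 genes no library of the second set reached the first, a pattern of 27.8% of all tested genes on TMM-scaled values. The 3 were among the 26.9% called lower. On TMM-scaled values each library of Slc30a5 in the second set lay above each of the first, as in 27.9% of all tested genes. Its CPM scaled to library totals overlapped. The call of Slc39a10 was lost without BiTS(mut) replicate 1 (-0.26) or BiTS(mut) replicate 2 (-0.26), and Slc39a6 was called without isotype replicate 1 (-0.26) or isotype replicate 4 (-0.26). The other members were at -0.04 ± 0.07 (Mt1), 0.08 ± 0.09 (Mt2), -0.09 ± 0.09 (Mtf1), 0.11 ± 0.08 (Slc30a5) and -0.16 ± 0.09 (Slc39a6), not called. In the second set, 14 of 16 tested dendritic cell markers were called lower and 1 higher. The markers of macrophages and monocytes summed to 30.6 to 34.9 CPM there and 43.9 to 54.7 CPM in the first set, with 4 of 6 called lower and Ly6c2, a monocyte marker, called higher (2.60 to 4.13 CPM in the first set and 12.5 to 16.7 CPM in the second). Of 9 T cell markers, 5 were called higher and 1 lower, where 25.9% of all tested genes were called higher and 26.9% lower. The part of these markers in the lower transporter counts was not tested. Scaled to the spike-in RNAs, the median of all genes in the second set moved to -0.73, so the signs of Mt2 (-0.68) and Slc30a5 (-0.64) turned. Relative to that median Mt2 was at 0.05, Slc30a5 at 0.10 and Slc30a1 at -1.17.

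The remaining zinc genes were compared in the same fits. Of 21 further genes, the other metallothioneins and SLC30 and SLC39 genes, 16 passed the filter and 0 were called in any treatment comparison, with the block or without it, where 3.4%, 0.972% and 0.05% of all genes were called with the block. At an unadjusted p under 0.05, 2 of the 16 were below it in BiTS against isotype, 1 in BiTS against BiTS(mut) and 0 in BiTS(mut) against isotype with the block, and 0 in each without it. Of all 13996 tested genes, 2071, 1183 and 620 were below it in these 3 comparisons with the block, and 176, 76 and 41 without it. The nearest to the threshold was Slc30a4, a ZnT of intracellular vesicles, at -0.25 ± 0.10 in BiTS against isotype (adjusted p = 0.200 by edgeR's quasi-likelihood test with the block). The median over the 16 genes was 0.09 in BiTS against isotype, beside a median of 0.00 over all tested genes.

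Between the sets 9 of the 16 genes were called, where 52.7% of all tested genes were (25.9% higher and 26.9% lower), 3 higher and 6 lower in the second. Slc30a4 fell by 0.70 ± 0.08 on the log2 scale (adjusted p = 5.00e-10 by edgeR's quasi-likelihood test, as for the next values), from 55.6 to 71.3 CPM in the first set to 35.6 to 41.3 CPM in the second. Slc30a9 fell by 0.58 ± 0.07 (adjusted p = 1.63e-09) and Slc30a7, which serves the secretory pathway, by 0.54 ± 0.08 (adjusted p = 3.73e-07). Each was lower in all 3 libraries of the second set. Mt3 (1.43 ± 0.29), Slc30a2 (1.17 ± 0.32) and Slc39a4 (0.49 ± 0.14), which encodes the importer ZIP4, were the genes that rose. Scaled to the spike-in RNAs, Slc30a4 (-1.45), Slc30a9 (-1.33) and Slc30a7 (-1.29) were called lower, but so were 6008 of all tested genes. Mt3 (0.68) and Slc30a2 (0.41) were not called, where only 64 of all tested genes were called higher. The sign of Slc39a4 turned (-0.27). Relative to the median of all genes under that scaling (-0.73), Mt3 was at 1.41, Slc30a2 at 1.14 and Slc39a4 at 0.47, close to their values with TMM.

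**Figure D5:**
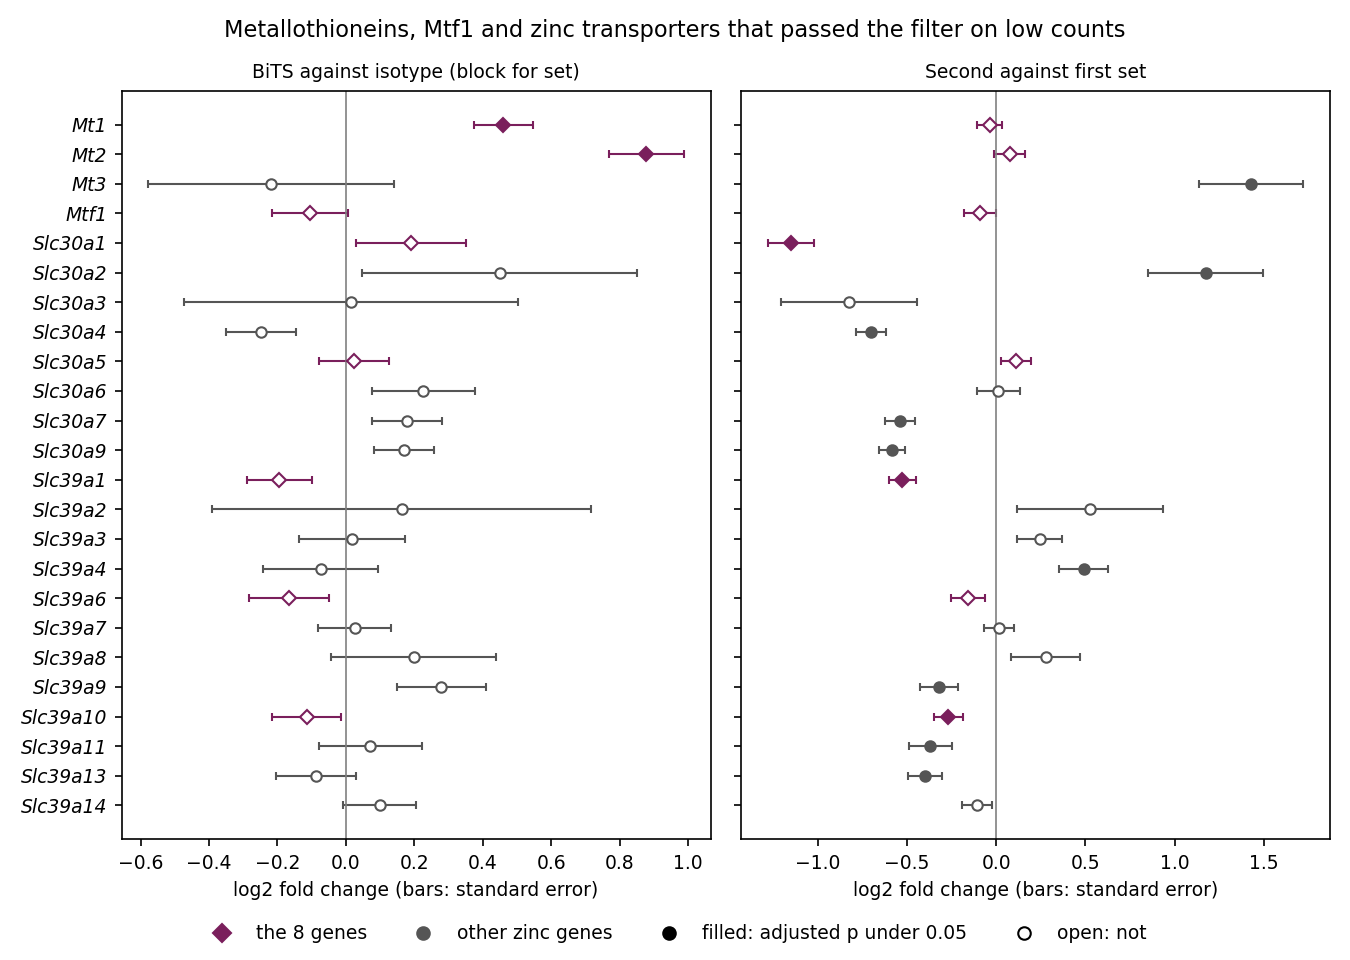
Log2 fold change with its standard error for the 8 genes (purple diamonds) and the 16 other tested zinc genes (grey circles), for BiTS against isotype with the block (left) and the second against the first set (right); filled symbols had an adjusted p under 0.05, a description only for the 8 genes. On the left only Mt1 and Mt2 are filled, and on the right 3 of the 8 and 9 of the 16 are.

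Pathways known to induce metallothioneins were read from lists, beside 3.4% of all tested genes called in BiTS against isotype with the block (1.81% higher and 1.59% lower). Of 4 tested further targets ascribed to MTF1, Ndrg1 rose in BiTS against isotype (0.30 ± 0.09, adjusted p = 0.0452 by edgeR's quasi-likelihood test with the block) and the median was -0.07. Ndrg1 was at 444 CPM (isotype) and 476 CPM (BiTS) in the first set and 178 and 242 CPM in the second. Of 8 glucocorticoid-induced genes, Tsc22d3, which encodes GILZ (0.45 ± 0.12, adjusted p = 0.0255), and Ddit4, which encodes the mTORC1 inhibitor REDD1 (0.29 ± 0.08, adjusted p = 0.0425), rose by the same test, and the median was 0.07. Both were higher with BiTS in both sets: Tsc22d3 at 40.8 against 33.4 CPM and 25.4 against 16.8 CPM, and Ddit4 at 500 against 415 CPM and 426 against 359 CPM. Of 10 targets of NRF2, the sensor of oxidative stress, 0 were called, and so were 0 of 9 genes of copper handling and 0 of 9 of iron handling. Without BiTS replicate 2 the blocked values were 0.10 (Ndrg1), 0.36 (Tsc22d3) and 0.24 (Ddit4), none called. Ndrg1 (0.30) and Tsc22d3 (0.46) also lost their calls without either BiTS(mut) library, Tsc22d3 without isotype replicate 4 (0.37), and Ddit4 without isotype replicate 1 (0.19), BiTS replicate 1 (0.34) or either BiTS(mut) library (0.29). DESeq2 with the block called none of these 3 genes either.

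Against BiTS(mut), BiTS was lower for 2 of the 10 NRF2 targets, where 0.7% of all tested genes were called lower and 0.972% in either direction. Slc7a11, the cystine transporter, was at 20.7 against 32.1 CPM in the first set and 7.58 against 13.0 CPM in the second (-0.68 ± 0.15, adjusted p = 0.00690 by edgeR's quasi-likelihood test with the block). Gclc, which encodes the catalytic subunit for glutathione synthesis and is also listed as an MTF1 target, was at 110 against 146 CPM and 81.4 against 99.1 CPM (-0.33 ± 0.09, adjusted p = 0.0410). With isotype, Slc7a11 was at 26.0 CPM (first set) and 7.56 CPM (second set), and Gclc at 148 and 89.4 CPM. In the second set BiTS(mut) was thus the highest library for both genes. The glucocorticoid, copper and iron lists held 0 called genes in BiTS against BiTS(mut), and all 5 lists held 0 in BiTS(mut) against isotype. Neither gene was called by DESeq2 with the block, and neither was called without BiTS(mut) replicate 1, BiTS(mut) replicate 2 or BiTS replicate 1 (Slc7a11 at -0.85, -0.57 and -0.64, and Gclc at -0.33, -0.34 and -0.23). Gclc was not called without BiTS replicate 2 either (-0.43).

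Marker genes moved with the treatments as well. The marker calls given here come from the fit with the block. Without it, 0 T cell, dendritic cell or stromal markers were called in BiTS against isotype or BiTS against BiTS(mut). Within each set the summed T cell markers were highest with BiTS (2089 CPM against 1750 CPM with isotype, and 2223 against 1927 CPM), and 3 of 9 were called higher, Lck, Cd8a and Cd8b1, where 1.81% of all tested genes were. Cd5, on the same list, had the opposite sign (-0.27 ± 0.09, not called), at 156 against 178 CPM and 120.1 against 161 CPM. In BiTS against BiTS(mut), 0 of the 9 were called higher, beside 0.272% of all tested genes. Cd5 was called lower there (-0.33 ± 0.09), as were 0.7% of all tested genes. The summed dendritic cell markers were lowest with BiTS in each set (2523 against 3158 CPM, and 1494 against 1570 CPM). Of 16 tested, 6 were called lower, where 1.59% of all tested genes were. In the second set Itgax, Flt3, Clec9a, Wdfy4, Ccr7 and H2-Ab1 were higher with BiTS than with isotype, and the other tested markers lower. Ccr7 was at 497 against 425 CPM there, and Ccl22 at 175 against 256 CPM. Between BiTS and BiTS(mut), 5 of the 16 were called lower, beside 0.7% of all tested genes. Erythroid and neutrophil markers, each summing to at most 0.81 and 0.54 CPM, were near 0, with Hba-a2, Hbb-bs, Hbb-bt, S100a8 and S100a9 among those at 0. Markers of B cells summed to 59.1 to 98.4 CPM, of NK cells to 10.1 to 20.7 CPM and of stromal cells to 14.2 to 24.0 CPM. In BiTS against isotype, 1 of 4 tested stromal markers was called lower, beside 1.59% of all tested genes. Of the tested B cell and NK cell markers, 0 of 3 and 0 of 2 were called there. The part of the culture's cell makeup in the metallothionein levels was not tested.

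After removing the set means, Mt1 and Mt2 had a Pearson r of 0.985 over the 6 libraries. Other genes were compared if they had a mean of at least 5 CPM. Gene-model, Rik, accession-like and pseudogene symbols and genes of the mitochondrial genome were left out. Among the 9717 genes compared, the patterns most like that of Mt1 were those of Apba3, Rpl30, Klhl7, Helz and Pitpnc1 (r from 0.997 to 0.998). Those most like Mt2 were Stard10, Clk1, Gpi1, Mrtfa and Ankrd24 (r from 0.996 to 0.998). Of the 9717 genes, 15 were over 0.99 with Mt1 and 20 with Mt2, and 162 and 237 were over 0.95. Mt1 and Mt2 were both chosen with their treatment differences known, so nothing is read from the r between them. The values describe the pattern only. The like genes moved by different amounts: Rpl30 had a blocked log2 fold change of 0.11 ± 0.08 in BiTS against isotype and Clk1 of 0.48 ± 0.08.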

How the data were processed

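Bulk RNA-seq of 6 libraries, 2 per treatment, was analysed from raw counts per gene that the authors deposited, 1 table per library. The submitters' processing notes name mm10 and DESeq2. Aligner, counter, annotation release and use of strand: not given in the sources used here. Each table listed 49671 genes plus 92 spike-in RNAs (ERCC), and 0 columns belonged to other samples. Symbols were taken by identifier from GENCODE mouse release M21 (49412 matched, and the rest held 0.0133% of the counts), and coordinates from the deposited tables.

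CPM are counts scaled to the total of gene counts. TPM were computed from the deposited counts and exon lengths. Total gene counts were 10813123 to 15239077 per library, and spike-in RNAs held 3.36% to 7.54% of all counts. Wilson intervals (95%) and the floor of 3 counts cover counting error only.

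After filterByExpr and TMM scaling, the two-sided quasi-likelihood test of edgeR 4.0.16 (R 4.3.3) was applied to 13996 genes, with p-values adjusted by Benjamini-Hochberg and a threshold of 0.05. All 6 libraries entered each fit, with 1 term per treatment, and again with a replicate block for the title-number set. The pairing comes from the title numbering. Deviations from the group means correlated between libraries of a set at 0.66, 0.73 and 0.74 over all genes, while the labels name no batch, so both fits are given. The set difference was fitted with treatment in the model. No 2 libraries agreed within sampling noise (chi-square per degree of freedom at least 4.21). The steps were tested on simulated data.

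Alternatives were DESeq2 1.42.0, limma-voom (limma 3.58.1), RLE size factors, library totals, spike-in scaling, no filter, a filter at 5 CPM in 2 libraries, fits of the 4 libraries of a comparison alone, and leaving out each library in turn, each without and, but for the 4-library fit, with the block. Promoter windows and start sites came from RefSeq (GRCm38.p6). The members and the gene lists were chosen with earlier results of these data known. Named genes were the members, other zinc genes and list genes that were called (up to 3 per list, by p), tested neighbours within 250 kb of Mt1 or Mt2, and the 5 genes most like Mt1 and Mt2 by Pearson r of set-centred log2 CPM (mean of at least 5 CPM). The search by Pearson r left out gene-model, Rik, accession-like and pseudogene symbols and genes of the mitochondrial genome. Some neighbouring and marker genes are not reported here by name.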

Additional observations from a re-analysis of the deposited data

Results flagged for a closer look

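For 5 of the 8 genes and 6 pairs of values, a treatment difference pointed one way in the first set and the other way in the second, on TMM-scaled CPM. Each set holds 1 library per treatment and these differences between the sets were not tested. In BiTS against isotype, the log2 ratio of Slc30a5 was 0.10 (first set) and -0.057 (second set). In BiTS against BiTS(mut), Mtf1 was at 0.16 and -0.062 and Slc30a1 at -0.17 and 0.24. In BiTS(mut) against isotype, Slc30a5 was at 0.15 and -0.041, Slc39a1 at 0.015 and -0.11 and Slc39a6 at 0.024 and -0.29. On CPM scaled to library totals, 5 pairs in 4 genes did so: Slc39a1 (-0.022 and -0.10) and Slc39a6 (-0.014 and -0.28) then pointed down in both sets, and Slc39a10 turned in BiTS against BiTS(mut) (0.00065 and -0.0054). Mt1 and Mt2 pointed the same way in both sets in all 3 comparisons under both scalings.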

How the results depend on the processing

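The counts of called genes in the treatment comparisons depended on the block. In BiTS against isotype, 0 genes were called without it, and 476 with the replicate block, 537 with the block and limma-voom, 461 with RLE size factors, 411 with library totals, 458 with no filter, 409 with the CPM filter, 155 with DESeq2 and 0 with spike-in scaling. The blocked fit gave 345, 130, 937, 581, 291 and 306 without BiTS replicate 1, BiTS replicate 2, isotype replicate 1, isotype replicate 4, BiTS(mut) replicate 1 and BiTS(mut) replicate 2. In BiTS against BiTS(mut), the same replicate block settings gave 136, 170, 148, 124, 155, 102, 51 and 0 genes, and 100, 65, 361, 435, 25 and 28 with the libraries left out in that order. In BiTS(mut) against isotype they gave 7, 8, 7, 6, 14, 5, 2 and 1 genes, and 12, 12, 132, 15, 9 and 7 with a library left out. With no filter and no block, 11, 3 and 5 genes were called in the 3 comparisons, and the other unblocked settings called 0. The set count stayed within 1.5 times of 7382 in every setting run. The cause of these differences was not tested. With library totals, the blocked calls of BiTS against isotype split into 165 higher and 246 lower, beside 253 and 223 with TMM, and between the sets spike-in scaling gave 64 higher and 6008 lower, beside 3618 and 3764. Spike-in scaling moved the median of all genes to 0.17 in BiTS against BiTS(mut) and -0.10 in BiTS(mut) against isotype.

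Mt1 and Mt2 kept a positive log2 fold change in all 3 treatment comparisons in every setting run, with the block and without. In BiTS against isotype with the block, Mt1 ran from 0.40 to 0.52 and Mt2 from 0.69 to 1.06 when 1 library was left out. Mt2 in BiTS against BiTS(mut) was called in 3 of 7 blocked settings without spike-ins, and not with DESeq2, library totals, no filter or the CPM filter. Mt2 in BiTS(mut) against isotype was called with the block and no filter, and without isotype replicate 1, BiTS replicate 1 or BiTS replicate 2. Without the block, leaving out 1 library took Slc30a1 from -0.37 to 0.89 (BiTS against isotype), -0.58 to 0.79 (BiTS against BiTS(mut)) and -0.62 to 0.93 (BiTS(mut) against isotype), and Slc39a1 from -0.51 to 0.08, -0.47 to 0.17 and -0.36 to 0.22. Slc30a5, Slc39a6 and Slc39a10 also changed sign in at least 1 comparison, and Mtf1 in BiTS against BiTS(mut), none called. Among the named genes of other lists, signs turned in the unblocked fit for Slc7a11 in BiTS against BiTS(mut) without BiTS(mut) replicate 1 (0.12, and -1.54 without BiTS replicate 1), and for Ndrg1 in BiTS against isotype without BiTS replicate 1 (-0.30) or isotype replicate 4 (-0.24, and 0.996 without isotype replicate 1); leaving out 1 library there compares unequal numbers of each set. At these depths, Slc30a1 rested on 85 to 327 counts per library and Gm45774 on 28 to 100, so counting error limits both.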
